A study of Mus musculus with 12 samples.

Results

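The small heat shock proteins are a family of chaperones of low molecular mass that share a domain with the lens alpha-crystallins. They assemble into oligomers, bind proteins that are unfolding and hold them in a state from which ATP-dependent chaperones of the HSP70 class can refold them or pass them to degradation. Skeletal and cardiac muscle hold most members of the family at high levels, where they associate with desmin and other intermediate filaments and with the Z-disc. The 7 members described here were *Hspb1* (also called HSP25 or HSP27), *Hspb2*, *Hspb3*, *Hspb6* (HSP20), *Hspb7* (cvHSP), *Hspb8* (HSP22) and *Cryab* (alpha-B-crystallin). They were taken by gene symbol from tables of 22273 entries for gastrocnemius and 22252 each for liver and gonadal white adipose tissue (WAT). The set was assembled because *Hspb7* in WAT and *Hspb1* had changed with corticosterone in these same libraries, so the changes given for members describe the data and were not tested. All 7 had an entry in each tissue, and 7 in gastrocnemius, 5 in liver and 6 in WAT were above 0 in all 4 libraries, the filter below which no change was called.

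The libraries came from C57BL/6J male mice, 8 weeks old when treatment began. GRf/f mice carry floxed alleles of *Nr3c1*, the gene of the glucocorticoid receptor (GR), around exon 3, and GRmKO mice carry the same floxed alleles with an Acta1-Cre transgene, which is active in skeletal muscle, so that in liver and WAT the floxed gene itself is left in place in both genotypes. Mice of both genotypes drank water with 1% ethanol for 4 weeks, alone (vehicle) or with corticosterone at 100 µg/mL (CORT), the main glucocorticoid of rodents. RNA of 3 mice was pooled for each library, and there was 1 library per tissue, genotype and treatment (12 libraries), so no difference has a replicate check, and the spread between mice is not measured. The intervals below are 95% counting intervals, Wilson for a level and Clopper-Pearson for a ratio, which cover counting error only. Estimated counts per library totaled 19394572 to 20940660. Levels are in CPM, the count per 1000000 counts of the library, and a log2 change is taken between CPM + 0.5. A change was called when it reached 2-fold, among the 13543 entries in gastrocnemius, 12485 in liver and 14218 in WAT that were above 0 in all 4 libraries. In bulk tissue, fewer cells of a type and less RNA per cell cannot be told apart.

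The targeted gene *Nr3c1* was lower past 2-fold in the GRmKO libraries of gastrocnemius and within 2-fold in liver and WAT. In gastrocnemius it stood at 113 CPM in GRf/f vehicle and 90.4 in GRf/f CORT, against 46.4 in GRmKO vehicle and 35.5 in GRmKO CORT. In liver the range over the 4 libraries was 45.2 to 60.8 CPM, and in WAT 111 to 158. The summed level of 10 fast myofibre transcripts was 112736 to 155087 CPM in gastrocnemius. That of 7 hepatocyte transcripts was 79943 to 135979 CPM in liver, and that of 8 white adipocyte transcripts 26269 to 32656 CPM in WAT, so each tissue carried its defining transcripts.

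The members are spread over the genome (GRCm38, GENCODE M21 annotation). *Hspb1* lies at chr5:135887919-135889563 on the plus strand and *Hspb8* at chr5:116408491-116422864 on the minus strand. *Hspb7* lies at chr4:141420779-141425311 (plus), *Hspb6* at chr7:30552178-30555443 (plus) and *Hspb3* at chr13:113662896-113663676 (minus). *Cryab* (chr9:50751325-50756636, plus) and *Hspb2* (chr9:50751078-50752354, minus) run in opposite directions and overlap, with 614 bases between the starts of their first listed transcripts. Between transcripts of different members, the longest identical run was 16 bases, shared by *Hspb1* and *Cryab*, far shorter than a read. On the same strand, 0.629% of the 31-base words of *Hspb7* were found in other coding genes, 643 in all, and none of those of the other members. On the opposite strand, 49.5% of the words of *Hspb1* were found in *Gm9817*, a gene elsewhere, and 29.9% or 19.0% of those of *Hspb2*, depending on the transcript, in *Cryab*. Whether the counting used strand was not given in the sources used here, so *Hspb1* and *Hspb2* values carry that uncertainty. *Gm9817* itself was listed at 0 to 0.342 CPM in the 12 libraries.

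The sequence before the start of the lead genes is shown because members that moved together and members that did not can be compared by the motifs it holds. RefSeq's promoter table (GRCm38.p6, 250 bases before to 50 after the start) held 5 of the 7 members; *Hspb2* and *Cryab* had no entry. Searched on both strands were the heat shock element as a pair of facing units (GAANNTTC or TTCNNGAA), the same element with 3 units (GAANNTTCNNGAA or TTCNNGAANNTTC, which contains the pair), the GR hexamer (AGAACA or TGTTCT), a relaxed GR palindrome (GNACANNNTGTNC), a MEF2-like site (CTANNNNTAG) and the TATA box (TATAAA or TTTATA). The 250 bases before each start follow, *Hspb1* at chr5:135887669-135887918 (plus) and *Hspb7* at chr4:141420529-141420778 (plus), 5′ to 3′, with heat shock pairs and GR hexamer matches in capitals.
Hspb1: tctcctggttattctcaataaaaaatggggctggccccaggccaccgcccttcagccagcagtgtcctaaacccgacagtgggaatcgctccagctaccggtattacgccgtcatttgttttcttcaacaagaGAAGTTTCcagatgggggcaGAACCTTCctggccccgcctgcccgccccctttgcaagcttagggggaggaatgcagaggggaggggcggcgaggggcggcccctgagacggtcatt
Hspb7: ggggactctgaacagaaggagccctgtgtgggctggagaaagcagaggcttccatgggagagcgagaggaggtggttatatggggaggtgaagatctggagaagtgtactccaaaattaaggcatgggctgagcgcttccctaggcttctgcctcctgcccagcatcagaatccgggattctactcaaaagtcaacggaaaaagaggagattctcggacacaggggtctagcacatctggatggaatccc

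The *Hspb1* promoter held 2 heat shock pairs, GAAGTTTC starting 117 bases and GAACCTTC starting 97 bases before the start. *Hspb6* held GAAGTTTC 120 bases before the RefSeq start of its window at chr7:30553051-30553350. Its kept transcript starts elsewhere, at chr7:30553268. *Hspb3* held GAATTTTC at 224 bases, and *Hspb8* held GAAGTTTC 3 bases after its start. Such a pair was present in 15.1% of the 32851 promoters of the table. The *Hspb7* window held no match to any of the 6 motifs. The only GR hexamer match was TGTTCT, 128 bases before the start of *Hspb8*; hexamer matches were present in 19.0% of promoters. No member's window held the 3-unit heat shock element (0.603% of promoters) or the relaxed GR palindrome (0.475%). *Hspb3* held a MEF2-like site at 12 bases (3.69% of promoters), and *Hspb3* and *Hspb6* a TATA box (13.6%). Thus the heat shock pair was found in the window of *Hspb1* and also in those of *Hspb3*, *Hspb6* and *Hspb8*, and was not found in the window of *Hspb7*. *Hspb6* and *Hspb8* stayed within 2-fold in all 12 comparisons below, and *Hspb3* in those of gastrocnemius, the only tissue where it was above 0 in all 4 libraries. These matches describe sequence only.

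Per transcript length, as TPM, the 7 members summed to 170.2 to 322 in liver. In WAT the sum was 680.0 to 2624, and in gastrocnemius it was 3266 to 5851. In gastrocnemius, *Hspb6*, a target of cyclic nucleotide-dependent kinases in muscle, had the highest TPM under vehicle (1337 in GRf/f and 1201 in GRmKO), and *Cryab* under CORT (2209 and 1191). In WAT *Hspb1* led all 4 libraries, at 239.7 TPM in GRf/f vehicle, 988 in GRf/f CORT, 343 in GRmKO vehicle and 817 in GRmKO CORT. In liver *Hspb8*, the partner of the co-chaperone BAG3, led at 118, 168, 147 and 157 TPM in the same order. These TPM values use the length of the kept transcript, and the entry kept by the authors for *Cryab* and *Hspb2* in gastrocnemius is a different transcript from that kept in liver and WAT.

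**Figure D1:**
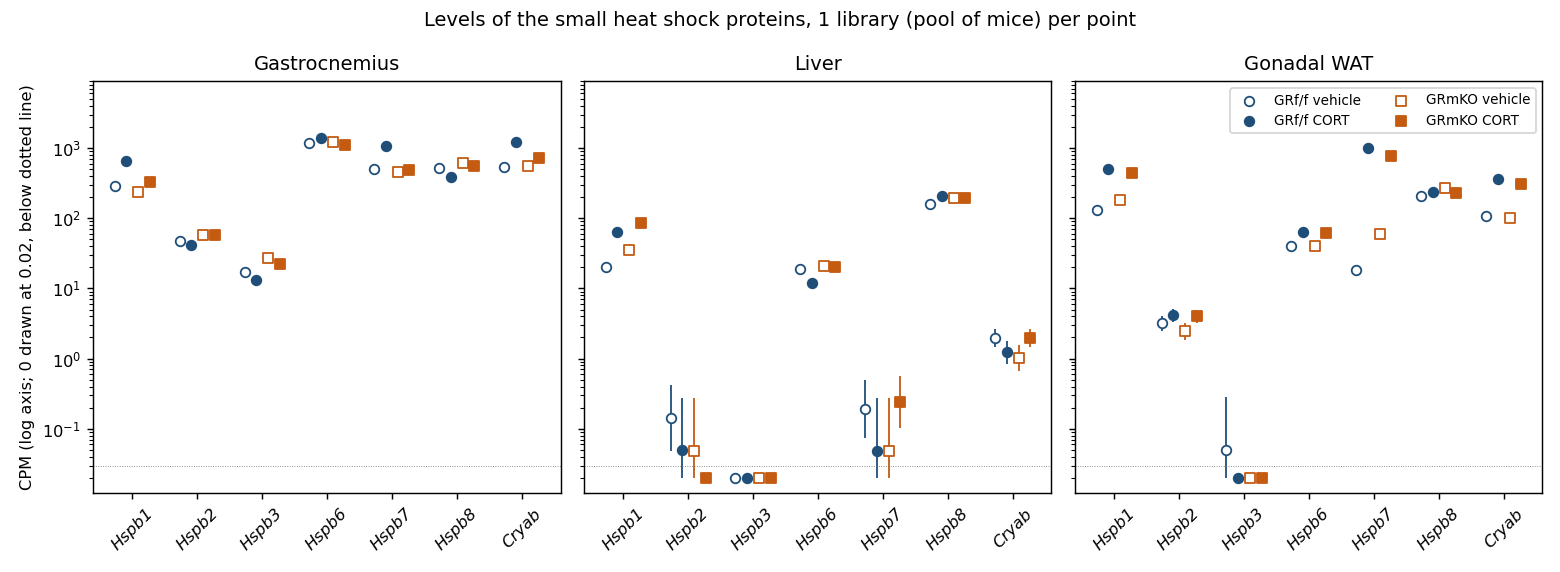
CPM (log axis) of the 7 small heat shock proteins in each library, by tissue; circles are GRf/f, squares GRmKO, open vehicle and filled CORT, bars are 95% Wilson intervals, and 0 is drawn at 0.02. *Hspb7* spans 18.0 to 999.9 CPM over the 4 WAT libraries, and in gastrocnemius the filled GRf/f circle stands above the other 3 points for *Hspb1*, *Hspb7* and *Cryab*.

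*Hspb7* in WAT showed the largest change of any member in any comparison. It was at 18.0 CPM in GRf/f vehicle, 999.9 in GRf/f CORT, 60.4 in GRmKO vehicle and 758 in GRmKO CORT. Both CORT libraries were thus far above both vehicle libraries, and the order of the genotypes was opposite under vehicle and CORT. The log2 change with CORT was 5.76 (5.65 to 5.96) in GRf/f, rank 1 of the 14218 entries, and 3.64 (3.56 to 3.73) in GRmKO, rank 6. The change in GRmKO was smaller by 2.12 on the log2 scale (counting interval of GRmKO minus GRf/f, -2.32 to -1.98). Of that difference, 1.72 (1.58 to 1.93) lay between the vehicle libraries, where GRmKO was 3.36-fold higher, and -0.40 (-0.43 to -0.37) between the CORT libraries. By TPM, 71.2% of WAT entries lay below *Hspb7* in GRf/f vehicle, and 99.3% in GRf/f CORT.

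*Hspb7* is known as a chaperone of heart and skeletal muscle that binds filamin C, and its level in CORT-treated WAT was within 2-fold of that in muscle. In the GRf/f CORT libraries it was 999.9 CPM against 1052 in gastrocnemius, and in the GRmKO CORT libraries 758 against 481, or 158% of the muscle level. Under vehicle WAT held 3.52% of the gastrocnemius level in GRf/f and 13.3% in GRmKO. Muscle transcripts in WAT were therefore measured beside it. Over the 5 of 10 fast myofibre transcripts kept as the same entry in both tissues, WAT held 0.0507% of the gastrocnemius sum in GRf/f vehicle, 0.123% in GRf/f CORT, 0.283% in GRmKO vehicle and 0.125% in GRmKO CORT. The gastrocnemius level of *Hspb7* times those shares was 0.259, 1.29, 1.28 and 0.603 CPM, against 18.0, 999.9, 60.4 and 758 measured. *Acta1*, skeletal muscle actin, made up most of the 5 in WAT, with 37.4 of 46.7 CPM, 113 of 119, 199 of 203 and 103 of 107, while *Atp2a1*, the calcium pump of fast fibres, was at 0.396 to 3.01 CPM. The part of muscle RNA in the WAT values was not tested. The sum of all 10 was 53.4 to 204 CPM in WAT, highest in GRmKO vehicle, 5 of the 10 were above 0 in all 4 WAT libraries, and with CORT in GRf/f 1 was higher and 1 lower past 2-fold. Cardiac transcripts in WAT summed to 7.25 CPM in GRf/f vehicle, 15.4 in GRf/f CORT, 6.54 in GRmKO vehicle and 16.7 in GRmKO CORT. *Myl4* made up most of that, at 5.40, 14.7, 5.80 and 15.6 CPM (1.36 with CORT in each genotype). With CORT 1 of 4 was higher and 1 lower past 2-fold in GRf/f, and 1 of 4 higher in GRmKO. *Myh6*, the myosin of atrial and ventricular muscle, was at 0 in all 4 libraries. Mesothelial transcripts summed to 262 to 389.7 CPM with none of 5 past 2-fold.

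**Figure D2:**
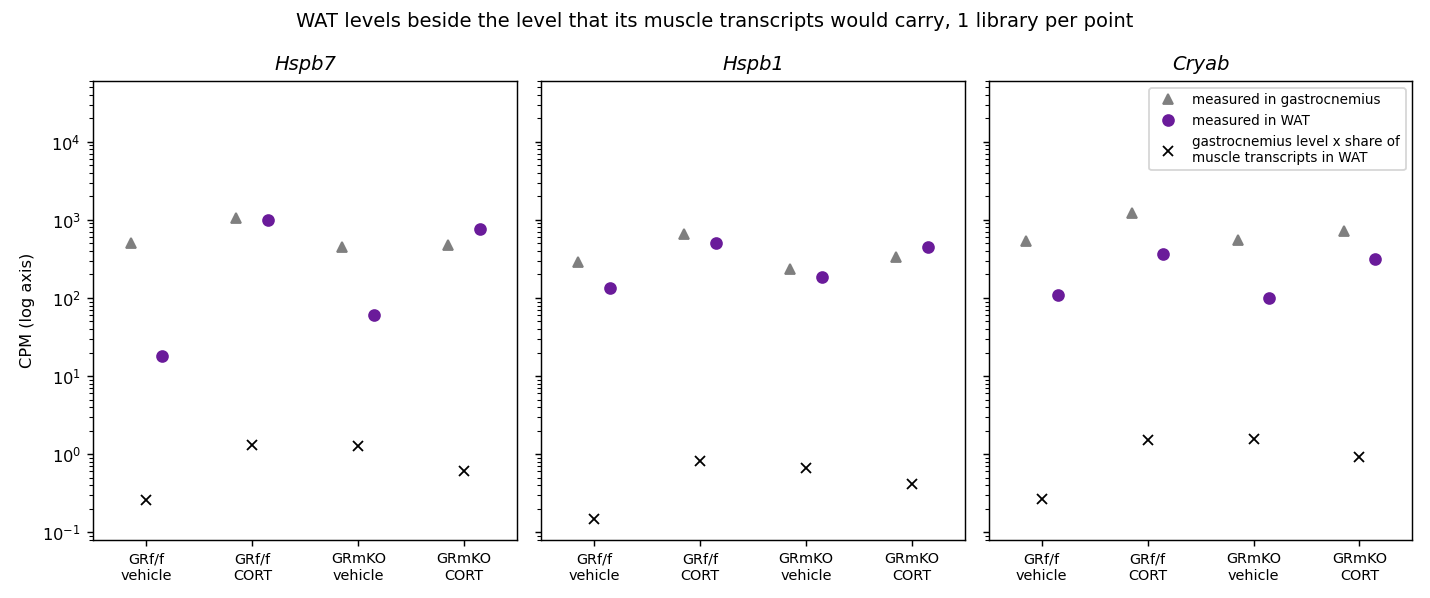
CPM (log axis) of *Hspb7*, *Hspb1* and *Cryab* in the 4 groups: gastrocnemius (triangles), WAT (dots) and the gastrocnemius level times the share of fast myofibre transcripts found in WAT (crosses). For *Hspb7* the dots lie between 18.0 and 999.9 CPM and the crosses between 0.259 and 1.29; the *Cryab* entries of the 2 tissues are different transcripts.

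Transcripts of other cell types in WAT differed between the CORT and vehicle libraries too. Endothelial transcripts summed to 666 CPM in vehicle and 241 in CORT in GRf/f (5 of 6 lower past 2-fold) and to 605 and 329 in GRmKO (1 of 6 lower). Macrophage transcripts summed to 280.1 and 657 in GRf/f (4 of 5 higher) and to 326 and 575 in GRmKO (1 of 5 higher). Of 6 smooth muscle transcripts 3 were lower in GRf/f and 1 in GRmKO. White adipocyte transcripts summed to 30773 and 26469 CPM in GRf/f and 32656 and 26269 in GRmKO, with 1 of 8 higher and 1 lower in each, fibroblast transcripts had 0 of 6 past 2-fold, and 5 epididymal transcripts summed to at most 1.10 CPM. In the order GRf/f vehicle, GRf/f CORT, GRmKO vehicle and GRmKO CORT, slow myofibre transcripts summed to 83.6, 174, 111 and 121 CPM and brown adipocyte transcripts to 28.7, 15.4, 14.0 and 15.0. *Atp2a2* alone made up nearly all of the slow myofibre sums, at 82.5, 173, 109.7 and 121 CPM. Every other transcript of that list was at 0.532 CPM or less in WAT. The part of these shifts in the member values was not tested.

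*Hspb1*, which binds actin and is the archetype of the stress-inducible members, was higher with CORT in every tissue and genotype. In gastrocnemius it was at 290.0 CPM in GRf/f vehicle, 663 in GRf/f CORT, 234 in GRmKO vehicle and 332 in GRmKO CORT. In liver the values in the same order were 19.9, 63.4, 35.3 and 85.8 CPM. In WAT they were 133, 505, 184 and 447 CPM. Each CORT library was above both vehicle libraries of its tissue. With CORT in GRf/f the log2 change was 1.93 (1.87 to 1.99) in WAT and 1.65 (1.51 to 1.83) in liver, against 1.19 (1.15 to 1.24) in muscle, all past 2-fold. In GRmKO it was 0.50 (0.45 to 0.56) in gastrocnemius, within 2-fold, 1.27 (1.16 to 1.41) in liver and 1.28 (1.22 to 1.34) in WAT. The change in GRmKO was the smaller in each tissue, by 0.69 on the log2 scale in gastrocnemius, by 0.38 in liver and by 0.65 in WAT, and the 3 counting intervals of the difference were -0.76 to -0.62, -0.59 to -0.19 and -0.73 to -0.57. The genotype difference itself took different signs. Under CORT GRmKO was lower than GRf/f in gastrocnemius (-0.996, just within 2-fold, interval -1.04 to -0.95) and WAT (-0.18, -0.22 to -0.13) and higher in liver (0.43, 0.33 to 0.54).

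*Cryab*, a chaperone of desmin whose loss or mutation causes muscle disease, was higher with CORT past 2-fold in WAT in both genotypes. Its WAT levels were 108 CPM in GRf/f vehicle, 360.4 in GRf/f CORT, 99.4 in GRmKO vehicle and 312 in GRmKO CORT, log2 changes of 1.73 (1.67 to 1.81) and 1.64 (1.58 to 1.72). The difference between these changes was -0.09 with a counting interval of -0.19 to 0.02. In gastrocnemius the levels were 530.2, 1226, 558 and 729.7 CPM in the same order, and GRf/f CORT alone stood apart. The changes there were 1.21 (1.18 to 1.24) in GRf/f and 0.39 (0.35 to 0.42) in GRmKO, a difference of -0.82 (-0.87 to -0.77). In liver *Cryab* was at 1.02 to 1.98 CPM in all 4 libraries.

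In gastrocnemius the highest *Hspb7* library was GRf/f CORT, as for *Hspb1* and *Cryab*. *Hspb7* was at 509.6 CPM in GRf/f vehicle, 1052 in GRf/f CORT, 453 in GRmKO vehicle and 481 in GRmKO CORT. The other 3 libraries spanned only 453 to 509.6 CPM. The change with CORT was 1.05 (1.01 to 1.08) in GRf/f and 0.09 (0.04 to 0.13) in GRmKO, and under CORT GRmKO was 2.19-fold lower than GRf/f (-1.13, -1.16 to -1.10), the only call among the members in the genotype comparisons of that tissue. In liver *Hspb7* was at 0.0488 to 0.240 CPM, a count of 1 to 5 per library.

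*Hspb8* and *Hspb6*, both abundant in muscle, stayed within 2-fold in all 12 comparisons. *Hspb8* in gastrocnemius was at 518 CPM in GRf/f vehicle, 385 in GRf/f CORT, 610.0 in GRmKO vehicle and 561 in GRmKO CORT, lowest where *Hspb1*, *Hspb7* and *Cryab* were highest. Its change with CORT was -0.43 (-0.47 to -0.39) in GRf/f gastrocnemius, 0.39 (0.32 to 0.45) in GRf/f liver and 0.21 (0.15 to 0.27) in GRf/f WAT. *Hspb6* in gastrocnemius was at 1197, 1393, 1218 and 1098 CPM, in WAT at 40.2, 63.0, 40.7 and 61.2 CPM, and in liver at 19.2, 12.1, 20.7 and 20.4 CPM. In WAT both CORT libraries were the higher, by 0.64 (0.52 to 0.78) in GRf/f and 0.58 (0.46 to 0.72) in GRmKO, while in liver GRf/f CORT was the lowest library (-0.65, -0.91 to -0.44). The small decreases of *Hspb6* (-0.15) and *Hspb8* (-0.12) with CORT in GRmKO gastrocnemius became 0.01 and 0.03 with TMM scaling and so have no settled direction; TMM moved the median of all entries there by 0.14, and in the CORT comparison of GRmKO WAT by 0.12.

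*Hspb2* and *Hspb3*, which form a complex with each other in muscle, were low outside gastrocnemius. There *Hspb2* was at 46.7 CPM in GRf/f vehicle, 41.5 in GRf/f CORT, 57.4 in GRmKO vehicle and 57.7 in GRmKO CORT, and *Hspb3* at 17.0, 13.1, 27.4 and 22.5 CPM. Both were higher in the GRmKO libraries, *Hspb3* by 0.67 (0.49 to 0.89) under vehicle and 0.76 (0.56 to 1.01) under CORT, within 2-fold. *Hspb2* was at 2.45 to 4.13 CPM in WAT and 0 to 0.144 in liver. *Hspb3* was listed at 0 in all 4 liver libraries and in 3 of 4 WAT libraries, with a count of 1 in GRf/f vehicle WAT; taken as 3 counts, the level that a count of 0 allows was 0.143 to 0.152 CPM in those libraries, for counting error only.

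**Figure D3:**
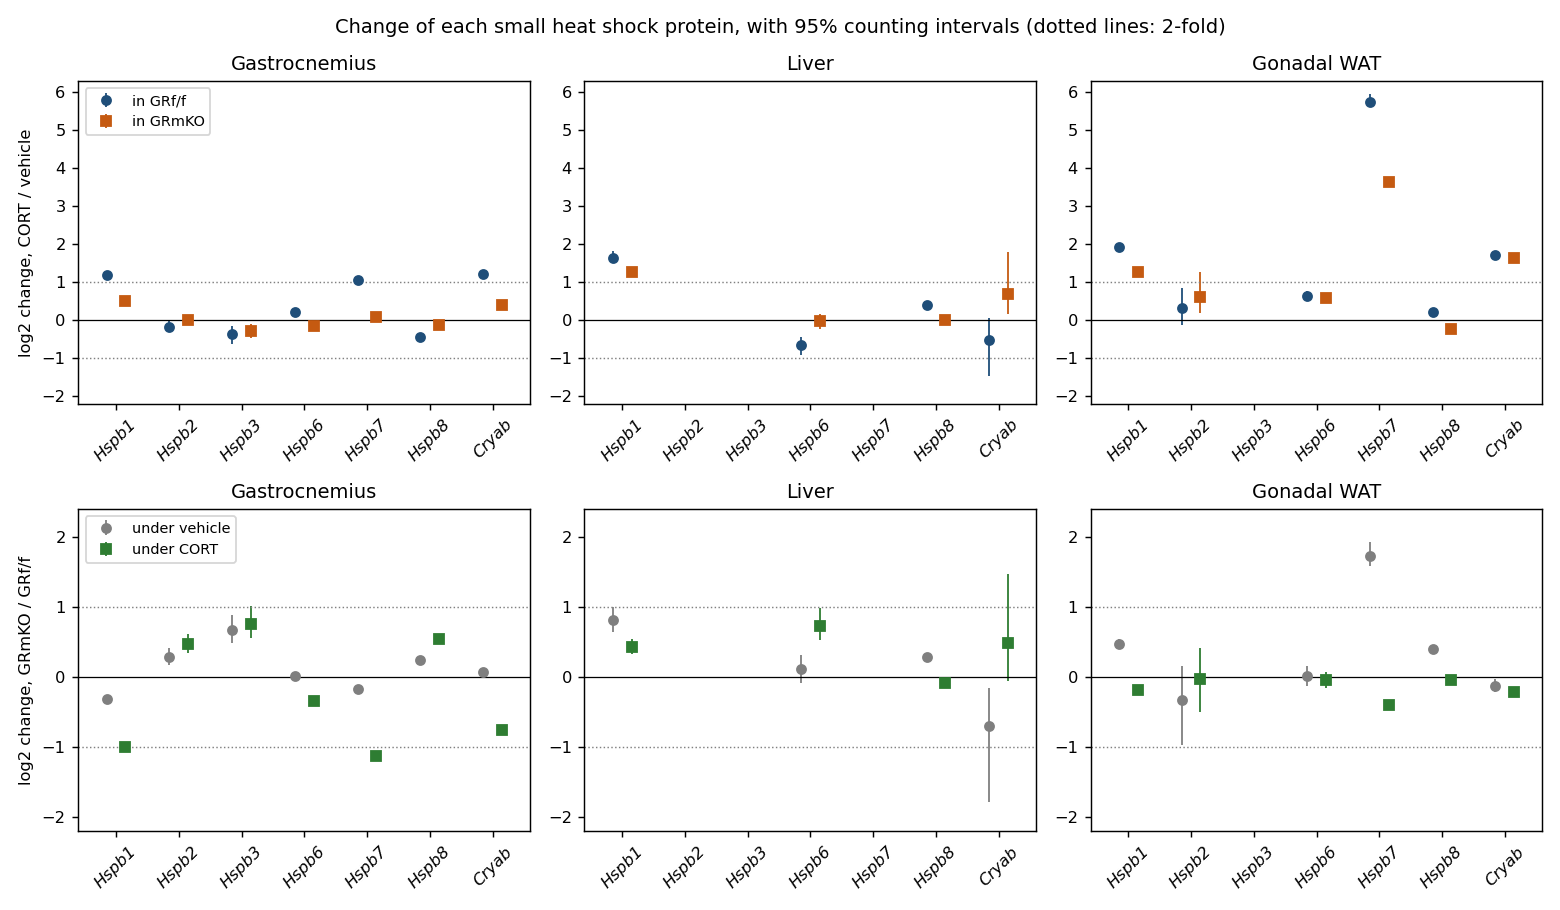
Log2 change of each member with CORT (upper row, in GRf/f and GRmKO) and between genotypes (lower row, under vehicle and CORT) in the 3 tissues, with 95% counting intervals; dotted lines mark 2-fold, and members not above 0 in all 4 libraries, or with an interval wider than 5, are left out. In gastrocnemius *Hspb1*, *Hspb7* and *Cryab* lie at 1.05 to 1.21 in GRf/f and 0.09 to 0.50 in GRmKO, and in WAT *Hspb7* lies at 5.76 and 3.64.

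Counted over all members, calls with CORT were increases of *Hspb1*, *Hspb7* and *Cryab* only. In gastrocnemius 3 of 7 were higher past 2-fold in GRf/f (7.97% of all entries tested were called in either direction) and 0 of 7 in GRmKO (6.53%). In liver *Hspb1* alone of 5 was called in GRf/f (11.6%) and in GRmKO (5.61%). In WAT 3 of 6 were called in GRf/f (13.6%) and the same 3 in GRmKO (9.10%). Between genotypes, *Hspb7* was the only member called. In gastrocnemius 0 of 7 members were called under vehicle (7.77%) and 1 of 7, *Hspb7*, under CORT (9.71%), to which TMM or median-of-ratios scaling added *Hspb1*. In liver 0 of 5 were called under vehicle (2.30%) and 0 of 5 under CORT (4.72%). In WAT 1 of 6, *Hspb7*, was called under vehicle (2.22%) and 0 of 6 under CORT (2.62%). Because the members were chosen on these contrasts, nothing follows from the counts beside these shares. The comparisons within a tissue share libraries: each GRf/f and GRmKO library enters 1 treatment and 1 genotype comparison.

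Cell type transcripts also differed between the gastrocnemius libraries. Slow myofibre transcripts summed to 751 CPM in GRf/f vehicle, 734 in GRf/f CORT, 1898 in GRmKO vehicle and 1096 in GRmKO CORT, with 7 of 7 higher in GRmKO under vehicle and 1 of 7 under CORT. White adipocyte transcripts summed to 267.2, 666.6, 366.5 and 524.8 CPM in the same order, with 5 of 7 higher and 1 lower with CORT in GRf/f and 4 of 7 higher in GRmKO. Hepatocyte transcripts summed to 45.2, 112, 128 and 337 CPM, with 5 of 6 higher in GRmKO under either treatment. *Cyp2e1*, which was also at 4877 to 5824 CPM in WAT, made up 39.0, 103, 49.8 and 91.1 CPM of those sums. *Alb* made up 4.13, 7.47, 56.4 and 198 CPM. The white adipocyte sum in GRf/f CORT was 2.52% of that in WAT, and the WAT levels times that share were 25.2 CPM for *Hspb7*, 12.7 for *Hspb1* and 9.08 for *Cryab*, against 1052, 663 and 1226 CPM measured. Cardiac transcripts summed to 510.2, 29.8, 1331 and 1153 CPM in gastrocnemius, and fibroblast transcripts to 1501, 559, 2303 and 795, both lowest in GRf/f CORT. *Actc1* alone made up nearly all of the cardiac sums, at 501, 25.6, 1312 and 1141 CPM. Brown adipocyte transcripts summed to 497 CPM in GRmKO vehicle and 454 in GRmKO CORT, above the 254 of GRf/f vehicle and the lower GRf/f CORT value. *Cox8b* alone made up nearly all of these sums, at 491 CPM in GRmKO vehicle, 449 in GRmKO CORT, 251 in GRf/f vehicle and 199 in GRf/f CORT. Macrophage transcripts summed to 48.8, 49.4, 125 and 42.9 CPM in the order given first. The part of these transcripts, white adipocyte ones included, in the member values was not tested.

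In liver, macrophage transcripts summed to 86.2 CPM in GRf/f vehicle, 31.2 in GRf/f CORT, 67.8 in GRmKO vehicle and 42.8 in GRmKO CORT, with 3 of 5 lower past 2-fold with CORT in GRf/f and 2 of 5 in GRmKO. Of the fibroblast transcripts 2 of 5 were lower with CORT in GRf/f and 1 of 5 in GRmKO, of the mesothelial ones 2 of 4 and 0 of 4, and of the hepatocyte ones 2 of 7 and 1 of 7. Endothelial transcripts had 1 of 6 higher and 1 lower in GRf/f and 0 of 6 in GRmKO. Between genotypes under CORT, 2 of 4 mesothelial transcripts were higher in GRmKO. The part of these transcripts in the liver values of *Hspb1* and the other members was not tested.

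The other lists of the pathway were read for context. HSF1 is the transcription factor that drives chaperone genes after heat and other proteotoxic stress. Among 14 of its target chaperones, 7 were higher past 2-fold with CORT in GRf/f gastrocnemius (median log2 change 0.90, all entries -0.08, 7.97% of entries called). In GRmKO gastrocnemius 3 were (0.36, all entries -0.10, 6.53%). In liver 7 were higher in GRf/f (1.09, all entries 0.00, 11.6%) and 1 in GRmKO (0.42, all entries 0.05, 5.61%). In WAT the counts were 4 (0.69, all entries -0.07, 13.6%) and 0 (-0.01, all entries -0.12, 9.10%). In none of these was a target lower past 2-fold. Between genotypes under CORT, 5 of 14 were lower in GRmKO in gastrocnemius (median -0.56, all entries 0.02, 9.71% of entries called). In liver 2 were lower (-0.27, all entries 0.07, 4.72%) and in WAT 1 (-0.24, all entries -0.03, 2.62%), and none was higher in any tissue. Under vehicle 2 were already lower in GRmKO in gastrocnemius (*Hspa1a*, -1.13, and *Hspa1b*, -1.08, 7.77% of entries called). Also under vehicle, 1 was higher in liver (*Hspa1b*, 1.17, 2.30%) and 0 of 14 passed 2-fold in WAT (2.22%).

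The largest changes of that list were those of the inducible HSP70 genes. *Hspa1b* was at 29.5 CPM in GRf/f vehicle, 733 in GRf/f CORT, 13.7 in GRmKO vehicle and 119 in GRmKO CORT in gastrocnemius, and *Hspa1a* at 33.4, 733, 15.0 and 126 CPM. These are near-identical copies, so their split is uncertain. *Dnajb1*, the HSP40 partner of HSP70, was at 14.0, 75.6, 18.5 and 50.3 CPM, and *Hsp90aa1*, the inducible HSP90, at 53.7, 256, 59.6 and 111 CPM. In these 4, as in *Hspb1*, *Hspb7* and *Cryab*, GRf/f CORT was the highest gastrocnemius library. In WAT *Hspa1b* was at 17.4, 60.8, 32.6 and 51.1 CPM, a change with CORT of 1.78 in GRf/f, below the 5.76 of *Hspb7*. Of the heat shock factors *Hsf1*, *Hsf2*, *Hsf4* and their binding protein *Hsbp1*, 0 of 4 passed 2-fold in gastrocnemius and liver and 0 of 3 in WAT. There *Hsf4* was below the filter, at 0.708, 0, 3.05 and 0.990 CPM, and no change was called. *Hsf1* was at 32.4 to 40.0 CPM in gastrocnemius.

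**Figure D4:**
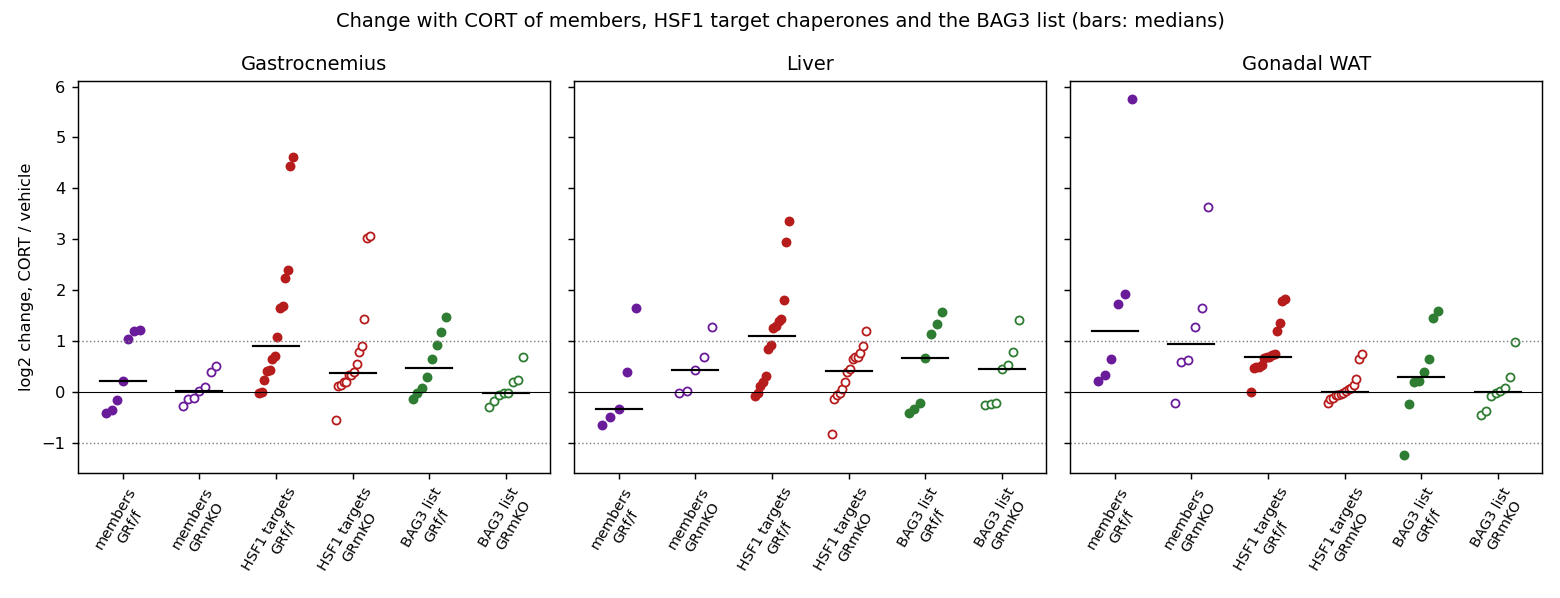
Log2 change with CORT in GRf/f (filled) and GRmKO (open) of the members, of 14 HSF1 target chaperones and of 8 genes of the BAG3 list, 1 point per gene above 0 in all 4 libraries; black bars are medians and dotted lines mark 2-fold. The median of the HSF1 targets is 0.90 against 0.36 in gastrocnemius, 1.09 against 0.42 in liver and 0.69 against -0.01 in WAT.

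BAG3 couples *Hspb8* and other members to HSP70 and to the selective autophagy of damaged filament proteins such as filamin C. Of 8 genes of that route, 7 of which were above 0 in all liver libraries, 2 of 8 were higher past 2-fold with CORT in GRf/f gastrocnemius (median log2 change 0.47, all entries -0.08; 7.97% of entries called), 3 of 7 in liver (0.66, all entries 0.00; 11.6%) and 2 of 8 in WAT, where 1 was lower (0.30, all entries -0.07; 13.6%). In GRmKO the counts were 0 of 8 (-0.02, all entries -0.10; 6.53%), 1 of 7 (0.45, all entries 0.05; 5.61%) and 0 of 8 (0.00, all entries -0.12; 9.10%), with 0 lower. Between genotypes 1 of 8 was higher in GRmKO in gastrocnemius (7.77% of entries called) and 1 of 8 in WAT (2.22%) under vehicle. Under CORT 1 of 8 was lower in gastrocnemius (9.71%). *Bag3* itself was at 289 CPM in GRf/f vehicle and 452 in GRf/f CORT in gastrocnemius (0.65) and at 44.6 and 133 in liver (1.57). *Flnc*, filamin C, was at 597 CPM in GRf/f vehicle, 1353 in GRf/f CORT, 353 in GRmKO vehicle and 415 in GRmKO CORT in gastrocnemius. Under CORT it was lower in GRmKO by 1.70 on the log2 scale (log2 change -1.70), and GRf/f CORT was again the highest library. In WAT *Flnc* was at 12.2 and 37.5 CPM in GRf/f (1.58) and at 13.6 and 27.1 in GRmKO (0.97).

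Among 12 genes of filaments and the Z-disc, which hold many proteins that the family binds, WAT had 9 above 0 in all 4 libraries. Of these, 4 were higher and 1 lower with CORT in GRf/f (median 0.12, all entries -0.07, 13.6% of entries called). In GRmKO 1 was higher and 2 lower (-0.28, all entries -0.12, 9.10%). *Vim*, vimentin, was at 1653 CPM in vehicle and 3431 in CORT in GRf/f WAT (1.05). *Dmpk*, a kinase that binds *Hspb2*, was at 107 and 318 CPM in GRf/f (1.56) and at 105 and 252 in GRmKO (1.26). In gastrocnemius 1 of 12 was higher with CORT in each genotype, with medians of 0.25 in GRf/f and 0.06 in GRmKO (all entries -0.08 and -0.10, 7.97% and 6.53% called). In liver 1 of 6 was higher and 1 lower in GRf/f and 0 of 6 passed in GRmKO (medians -0.45 and -0.21, all entries 0.00 and 0.05, 11.6% and 5.61% called). Between genotypes 1 of 12 was lower in GRmKO gastrocnemius under vehicle (*Ttn*, -1.26, 7.77% called) and 2 under CORT (*Ttn*, -1.73, and *Flnc*, -1.70, 9.71%). In liver 1 of 6 was higher under vehicle (*Flna*, 1.51, 2.30%), and in WAT 1 of 9 was lower under CORT (*Synm*, -1.69, 2.62%). Of 4 further relatives, *Hspb11* alone was above 0 in all libraries, at 0.947 to 5.60 CPM. It passed 2-fold in 2 comparisons, higher in GRmKO than GRf/f under CORT in gastrocnemius (1.59) and lower with CORT in GRf/f liver (-1.02). *Cryaa*, *Hspb9* and *Odf1* were at 0 to 0.149 CPM.

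The entries most like *Hspb7* in WAT were found by the root mean square difference of their 3 log2 changes from GRf/f vehicle, over 10409 entries with a mean of at least 5 CPM. They were *Tlcd3b* (1.08), *Rnase2a* (1.13), *Pign* (1.21), *Pkp1* (1.25) and *Chil3* (1.29), all far lower in level, with at most 27.6 CPM in any WAT library. Differences among these low entries depend on the 0.5 CPM added. *Tlcd3b* and *Pign* were listed at 0 in GRf/f vehicle and stood at 4.54 and 6.10 CPM in GRmKO vehicle. Both were thus below the filter, and no change was called for them. The genotype change under vehicle was among the 3 used to pick these entries, so its likeness to that of *Hspb7* is built in. *Rnase2a*, *Pkp1* and *Chil3* were below 1 CPM in both vehicle libraries. Among the members, *Hspb1* ranked 116 and *Cryab* 178 by this measure.

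Over 9 log2 changes in the 3 tissues and 6731 entries, the entries most like *Hspb1* were *Tnfrsf12a* (0.51), the receptor of the cytokine TWEAK, *Tmem37* (0.51), *Flna* (0.52), which encodes filamin A, *Acss3* (0.61) and *Tango2* (0.61). *Tnfrsf12a* was at 11.2 CPM in GRf/f vehicle, 40.5 in GRf/f CORT, 14.0 in GRmKO vehicle and 33.6 in GRmKO CORT in WAT. *Flna* was at 186, 499, 239 and 328 CPM in the same order. In both, as in *Hspb1*, each CORT library of WAT was above both vehicle libraries, and GRf/f CORT was the highest. Because these entries were picked for likeness in these same changes, the shared order is no separate result.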

How the data were processed

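RNA of gastrocnemius, liver and gonadal WAT was sequenced in 12 libraries, each a pool of 3 mice. The values are estimated counts, 1 entry per gene symbol, as deposited by the authors. To make these estimated counts the authors quantified reads with Salmon 1.2.1 against GENCODE protein-coding transcripts (mm10), imported them into R 3.5.0 with tximport (length-scaled TPM, so the counts are adjusted for transcript length), named them with biomaRt and kept the entry with the largest total for a repeated symbol. Changes in an entry can therefore include a change of transcript, which the values cannot separate. Strand settings were not given in the sources used here.

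Counts were divided by the library total (19394572 to 20940660, where 3 counts equal 0.143 to 0.155 CPM). Changes were log2 ratios of CPM + 0.5, called at 2-fold among entries above 0 in all 4 libraries of a tissue. The authors tested with NOISeq, which simulates replicates for single libraries and was not repeated. With 1 library per group no test was made. Intervals used scipy 1.17.1 on rounded counts, TMM factors edgeR 4.0.16 in R 4.3.3, and other steps Python 3.11.15, numpy 2.4.6 and pandas 2.3.3. The change, call and interval functions were tested on simulated data with known folds. Sequence words of 31 bases were compared over GENCODE M21 coding transcripts (GRCm38), and promoters came from RefSeq (GRCm38.p6).

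The members and the gene lists were chosen with earlier results of these data known. Named were the members, from each list up to 4 genes with the largest change among those with a mean of at least 5 CPM, and the 5 entries most like *Hspb7* in WAT and *Hspb1* in all tissues. *Nr3c1*, *Gm9817*, *Myh6*, *Hsf4*, *Atp2a1*, *Hspb11*, *Cryaa*, *Hspb9* and *Odf1* are named outside that rule. Alternatives were 0.1 or 1 CPM added, TMM and median-of-ratios factors, no filter, a mean of at least 1 CPM, and calls at 1.5-fold or 3-fold.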

Additional observations from a re-analysis of the deposited data

Results flagged for a closer look

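Several members moved in opposite directions in 2 groups under the same contrast, with counting intervals clear of no change in both groups and the same directions under total, TMM and median-of-ratios scaling. Each group is 1 library, so these differences of log2 changes were not tested.

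For *Hspb7* in WAT the genotype difference was 1.72 under vehicle and -0.40 under CORT, a difference of -2.12. Under vehicle the genotype difference of *Hspb7* was -0.17 in gastrocnemius, so that WAT minus gastrocnemius was 1.89.

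For *Hspb1* in WAT the genotype difference was 0.47 under vehicle and -0.18 under CORT, a difference of -0.65. Its genotype difference under vehicle was -0.31 in gastrocnemius, 0.81 in liver and 0.47 in WAT, which puts liver 1.12 and WAT 0.78 above gastrocnemius. Under CORT it was -0.996, 0.43 and -0.18, which puts liver 1.43 above gastrocnemius and WAT minus liver at -0.61.

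*Hspb6* changed with CORT in GRf/f by 0.22 in gastrocnemius, -0.65 in liver and 0.64 in WAT, so that liver minus gastrocnemius was -0.87 and WAT minus liver 1.29. Its genotype difference under CORT was -0.34 in gastrocnemius and 0.73 in liver, which differ by 1.08.

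*Hspb8* changed with CORT in GRf/f by -0.43 in gastrocnemius, 0.39 in liver and 0.21 in WAT, so that liver lay 0.81 and WAT 0.64 above gastrocnemius. In WAT its change in GRmKO was -0.22, a difference of -0.44 from GRf/f. Its genotype difference in liver was 0.29 under vehicle and -0.09 under CORT, which differ by -0.38, and under CORT it was 0.54 in gastrocnemius, so that liver minus gastrocnemius was -0.63.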

How the results depend on the processing

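With 1 pooled library per group, leaving out a library was not possible, and a difference between groups cannot be told apart from a difference between pools. No paired analysis was possible because the labels give no replicate numbers and the values come from no test. Single changes of members, apart from *Hspb7* in WAT, were recomputed with 0.1 or 1 CPM added or with TMM or median-of-ratios factors. Of these 272, 224 moved by less than their counting interval and 48 by more. None of the called ones turned sign, and scaling moved none by more than 0.16 (log2). The largest move was 0.77, for *Hspb7* in liver with CORT in GRmKO when 0.1 CPM was added.

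*Hspb7* in WAT changed with CORT in GRmKO by 3.76 with TMM and 3.77 with median-of-ratios factors, and its genotype difference under CORT was -0.36 and -0.37. Under either factor 2 members were called in gastrocnemius between genotypes under CORT. With 0.1 CPM added 2 members were called in liver with CORT in GRmKO and 1 between genotypes under CORT, through *Hspb7* with counts of 1 to 5. At 3-fold, 0 members were called in gastrocnemius with CORT in GRf/f, in gastrocnemius between genotypes under CORT and in liver with CORT in GRmKO. At 1.5-fold the members called in gastrocnemius were 1 between genotypes under vehicle and 4 under CORT, and in liver 2 with CORT in each genotype, 2 between genotypes under vehicle and 1 under CORT. The other counts of members were within 1.5 times those reported.

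Counts of all entries called depended on the setting, and are given here for CORT in GRf/f, CORT in GRmKO, genotype under vehicle and genotype under CORT, in that order, where they left 1.5 times those reported. At 1.5-fold they were 3058, 2557, 3255 and 3757 in gastrocnemius, 3391, 2215, 1238 and 2064 in liver, and 4636, 3570, 1375 and 1510 in WAT. At 3-fold they were 292, 236, 248 and 382, then 485, 205, 58 and 118, then 654, 321, 85 and 64. With 0.1 CPM added they were 1672, 1445, 1656 and 2010 in gastrocnemius. In liver they were 1184, 670 and 1152 and in WAT 1944, 715 and 815, without CORT in GRf/f, which stayed within 1.5 times. With 1 CPM added the genotype counts were 183 and 392 in liver and 207 and 239 in WAT. With no filter the counts were 1401 for CORT in GRmKO and 1621 for genotype under vehicle in gastrocnemius, 1143, 657 and 982 in liver without CORT in GRf/f, and 708 and 767 for genotype in WAT. With a mean of at least 1 CPM the count for genotype under vehicle in liver was 461.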
